A study of Homo sapiens with 18 samples.

Results

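The genes described here were 40 interferon-stimulated effector genes, among 62703 annotated genes measured in each library. They were chosen as a named list of genes that act downstream of interferon signalling, with no measured value in the rule, and all 40 were found by symbol in the annotation. Earlier results of these data were known when the list was chosen, so shares of members set beside all genes are a description. The cells were MDA-MB-231, a long-established human line of triple-negative breast cancer, and their poly(A) RNA was sequenced. There were 18 sample records, but 8 of them repeat another value for value, which leaves 10 libraries and 2 in each of 5 groups. In the knockdown experiment, cells were transduced with lentivirus for 24 h and selected in puromycin (2 μg per ml) for 72 h. The virus encoded a hairpin RNA, which was a control (Control shRNA) or targeted EZH2 (shEZH2) or E2F1 (shE2F1), so that all 3 groups share transduction and selection. The study lists 1 hairpin sequence per target. Effects of losing the target and other effects of that hairpin therefore cannot be told apart. In the drug experiment, cells were exposed for 72 h to the solvent DMSO or to 1 μM GSK126, which blocks the enzymatic activity of EZH2. A hairpin is processed by the cell into a small RNA that directs the destruction of a matching transcript. EZH2 is the enzyme within Polycomb repressive complex 2 that methylates histone H3, and E2F1 activates genes needed for cell division. The labels do not say whether the libraries of a group came from separate cultures, so that the tests measure the spread between these libraries, which may be technical.

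Interferons are secreted proteins that bind cell-surface receptors and activate kinases such as JAK1. Signals from type I and type III interferons then reach the interferon-stimulated response element (ISRE) in promoters, and those from interferon gamma the gamma-activated site (GAS). The induced proteins bind viral RNA, block translation, membrane fusion or particle release, and tag other proteins with the ubiquitin-like protein ISG15. Many tumour cell lines transcribe these genes at a low basal level without added interferon. The protocols name no treatment with interferon.

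To show promoter sequences, 6 of the members were chosen by their changes. Whether the changes depend on these sequences was not tested. IFIT1, BST2 and ISG15 were lower with shEZH2, RSAD2 was higher and GBP1 lower with shE2F1, and PARP12 was higher with both hairpins. Each run below is the 300 bases from 250 before to 50 after an annotated start, read 5′ to 3′ on the strand of the gene, from RefSeq on GRCh38.p14. Capitals mark the ISRE core (GAAA, any 2 bases, then GAAA, on either strand) and the E2F motif TTTCCCGC on either strand. All 6 windows shown hold an ISRE core. Called members without it, such as IFI35 and CMPK2, are not shown, nor is the first listed start of RSAD2, which also lacks it. IFIT1 lies at chr10:89392373-89392672 (plus strand), BST2 at chr19:17405581-17405880 (minus strand), ISG15 at chr1:1013247-1013546 (plus strand), the second listed start of RSAD2 at chr2:6877527-6877826 (plus strand), GBP1 at chr1:89065159-89065458 (minus strand) and PARP12 at chr7:140062902-140063201 (minus strand).
IFIT1: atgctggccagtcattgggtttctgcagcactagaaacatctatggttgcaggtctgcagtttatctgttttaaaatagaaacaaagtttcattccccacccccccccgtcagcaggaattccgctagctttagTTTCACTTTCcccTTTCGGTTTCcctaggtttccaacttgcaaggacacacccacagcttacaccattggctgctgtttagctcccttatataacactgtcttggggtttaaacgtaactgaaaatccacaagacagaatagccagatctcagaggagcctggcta
BST2: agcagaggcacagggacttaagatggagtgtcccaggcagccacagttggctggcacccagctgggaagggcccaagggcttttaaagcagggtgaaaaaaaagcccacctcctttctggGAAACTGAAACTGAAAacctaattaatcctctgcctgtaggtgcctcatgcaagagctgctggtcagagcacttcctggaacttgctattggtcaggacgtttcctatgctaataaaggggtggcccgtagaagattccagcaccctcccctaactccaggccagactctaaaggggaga
ISG15: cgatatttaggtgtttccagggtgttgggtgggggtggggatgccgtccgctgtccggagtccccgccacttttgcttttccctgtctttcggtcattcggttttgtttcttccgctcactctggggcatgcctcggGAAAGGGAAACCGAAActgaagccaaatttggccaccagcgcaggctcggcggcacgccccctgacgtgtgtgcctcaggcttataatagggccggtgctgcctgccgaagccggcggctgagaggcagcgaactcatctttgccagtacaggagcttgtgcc
RSAD2: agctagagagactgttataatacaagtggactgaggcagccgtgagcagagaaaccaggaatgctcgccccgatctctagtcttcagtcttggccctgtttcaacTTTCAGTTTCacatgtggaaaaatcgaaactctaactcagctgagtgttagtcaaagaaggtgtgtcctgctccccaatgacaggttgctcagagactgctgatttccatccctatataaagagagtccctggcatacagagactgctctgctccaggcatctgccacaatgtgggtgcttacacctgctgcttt
GBP1: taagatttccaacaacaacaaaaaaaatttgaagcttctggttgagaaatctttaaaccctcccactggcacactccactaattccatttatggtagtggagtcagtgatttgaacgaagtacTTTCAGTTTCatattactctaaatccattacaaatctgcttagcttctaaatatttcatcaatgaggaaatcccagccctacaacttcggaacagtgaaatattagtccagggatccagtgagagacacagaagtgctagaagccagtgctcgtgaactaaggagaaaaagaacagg
PARP12: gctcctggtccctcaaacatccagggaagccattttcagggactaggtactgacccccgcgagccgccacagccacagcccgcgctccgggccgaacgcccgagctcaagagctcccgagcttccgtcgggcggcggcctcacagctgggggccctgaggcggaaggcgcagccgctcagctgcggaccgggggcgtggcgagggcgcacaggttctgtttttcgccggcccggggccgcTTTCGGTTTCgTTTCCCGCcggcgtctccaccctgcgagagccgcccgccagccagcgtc

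Of the 40 members, 35 had a promoter in this table, with 50 windows in all. The 5 without one were MX2, TRIM22, USP18, IFITM2 and IFIT2. The ISRE core occurred in a window of 27 of the 35 members (77.1%), against 4.38% of all 27305 genes in the table. In 13 of the 27, a single window held 2 or more matches. In BST2 and ISG15 the matches overlapped, starting at -130 and -124 bases and at -113 and -107 bases from the start. In IFIT1 they began at -116 and -103, and in GBP1 the single match began at -127. The 8 members without the core were ADAR, CMPK2, UBE2L6, HERC6, SAMD9L, XAF1, SP110 and IFI35. The GAS letters TTCNNNGAA occurred in 10 of 35 members (28.6%) and in 9.38% of all genes. Of the 13 GAS matches, 6 overlapped an ISRE core. TTTCCCGC occurred in 3 of 35 members (8.57%), against 1.98% of all genes. These were RSAD2, at its first listed start, the adjacent CMPK2, and PARP12, where the E2F motif began at 1, next to an ISRE core that began at -10. The CMPK2 match is the same stretch of DNA as 1 of the 2 RSAD2 matches, so the 3 genes do not hold independent sites. PARP9 and DTX3L likewise share an ISRE core match, and a match in overlapping windows of a gene is counted in each. A second E2F motif, TTTGGCGC, was found in 0 of 35 members and in 0.795% of all genes. A match shows only that the letters are present.

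**Figure D1:**
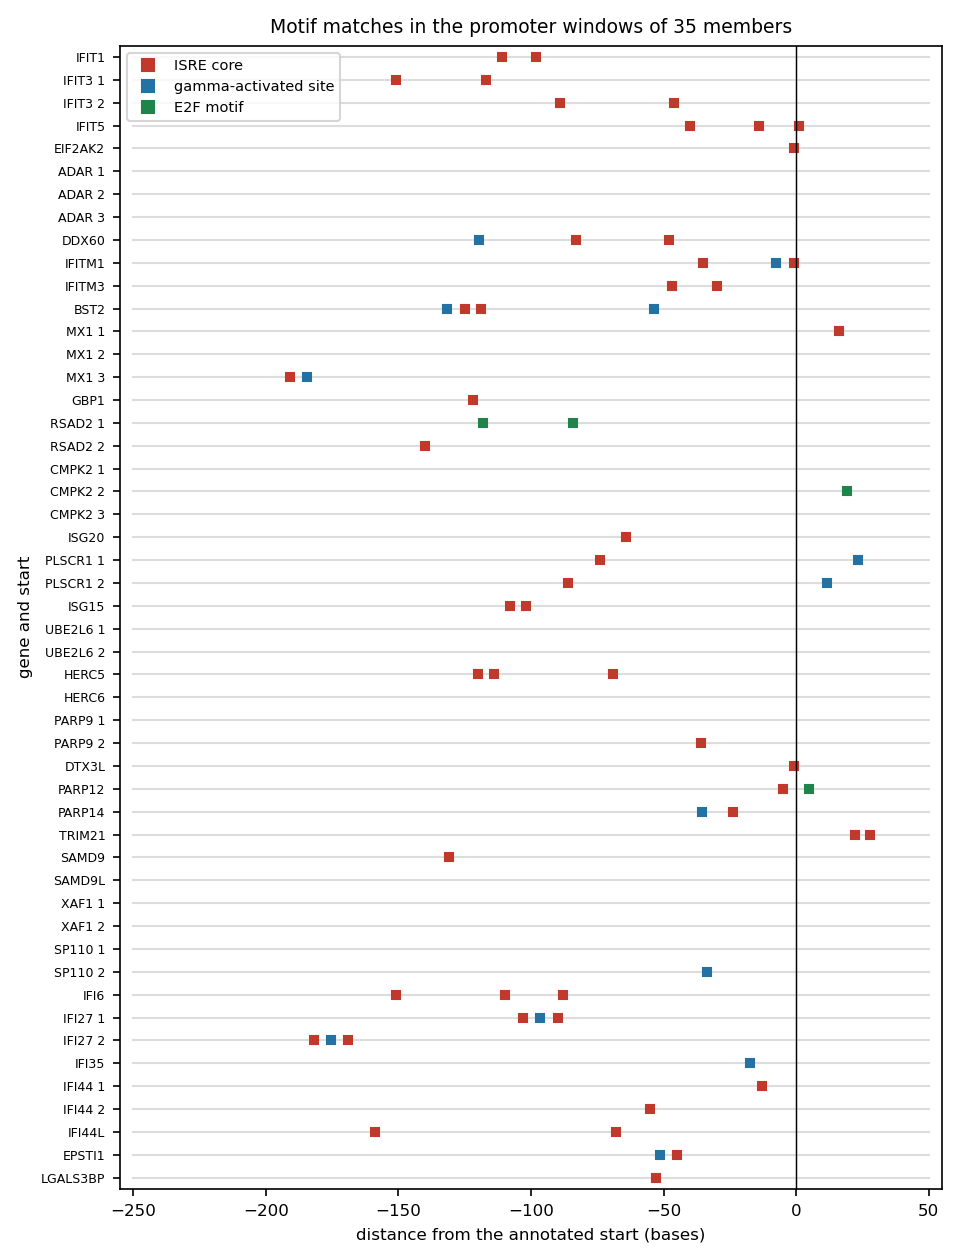
Each line is a promoter window of a member, numbered where a gene has several annotated starts, and squares mark the centre of each match by its distance in bases from the start, in red for the ISRE core, blue for the gamma-activated site and green for the E2F motif TTTCCCGC. The 50 ISRE core matches lie in 27 of the 35 genes, and the 4 E2F matches in RSAD2, CMPK2 and PARP12. Matches are counted in each window, and some windows overlap, so that a stretch of DNA can be counted more than once.

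Where a gene is compared with itself, its level is given as CPM, that is, counts per 1000000 in the library, scaled by TMM between libraries. Deposited TPM, which is scaled by gene length, was used to compare genes with one another. Library totals ran from 13198932 to 20055550 counts, and the limit set by a count of 0 (3 counts, for counting error only) was 0.150 to 0.227 CPM. The targeted genes followed the labels. EZH2 stood at 153 and 181 CPM in Control shRNA and 52.6 and 44.8 CPM in shEZH2, and between 121 and 142 CPM in the other 6 libraries. E2F1 stood at 143 and 138 CPM in Control shRNA and 26.0 and 22.5 CPM in shE2F1, and it was also lower in shEZH2, at 62.4 and 32.3 CPM. A gene was called at an edgeR adjusted p under 0.01, over all genes tested, with a change of more than 2-fold. All changes below are log2 fold changes from edgeR ± their standard error (SE), from 2 libraries per group. Fewer cells expressing a gene and less RNA per cell cannot be told apart in these libraries. Markers of leukocytes, which can also express these genes, summed to 4.02 to 5.67 CPM in Control shRNA, 1.66 to 2.53 CPM in shEZH2, 0.970 to 1.39 CPM in shE2F1, 3.95 to 4.76 CPM in DMSO and 3.65 to 4.16 CPM in GSK126. Most of the sum was CSF1R in Control shRNA, at 4.66 and 3.60 CPM, and the lymphocyte markers CD3E and MS4A1 were at 0 in all 10 libraries. The part of these markers in the results was not tested. The markers given here followed the labelled cell type, with VIM, CD44, KRT8 and KRT18 at 680 to 3520 CPM, PGR at 0 and ESR1 at most 0.216 CPM. ERBB2, the other receptor listed as low in this line, was measured, but its level is not given here. The check therefore covers only part of the 7 marker genes listed for the line. VIM was lower in shEZH2 (1418 and 1280 CPM) than in Control shRNA (3215 and 3520 CPM).

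The members were expressed at very different levels in the control cells. By mean TPM in Control shRNA, IFITM3, a membrane protein that blocks the fusion of viruses with endosomes, was highest at 562 TPM. It was followed by LGALS3BP, a secreted glycoprotein, at 270 TPM, by ISG15 at 240 TPM and by the virus tether BST2 at 107 TPM. Between 2 and 5 of the 40 members lay under 1 TPM in each library, and IFI44L was at or below 0.530 CPM in all 10 libraries and could not be tested. The TPM of the 40 members summed to 2092 and 1665 in Control shRNA, 1400 and 1508 in shEZH2, 2774 and 2918 in shE2F1, and from 2087 to 2201 in the 4 drug libraries. The summed level was thus lower in both shEZH2 libraries and higher in both shE2F1 libraries than in any other library. In shEZH2, BST2 stood at place 10 of this order instead of 4 and IFIT1 at place 32 instead of 14, while PARP12 moved from place 10 to place 3.

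**Figure D2:**
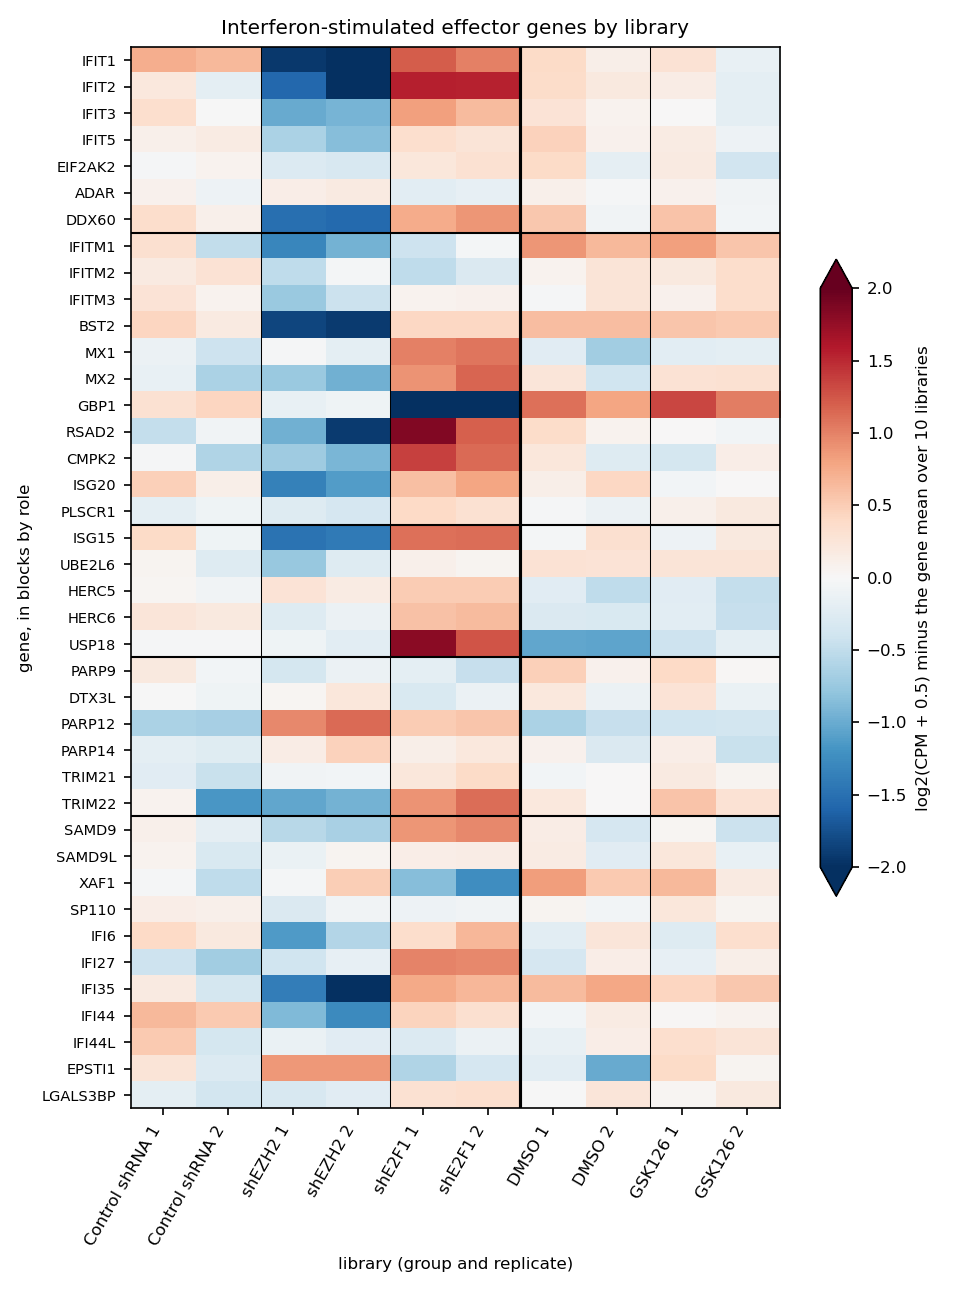
Rows are the 40 members, in blocks by role, columns the 10 libraries, and colour is log2(CPM + 0.5) minus the mean of the gene over the 10 libraries, from -2 (blue) to 2 (red). The 2 libraries of shEZH2 are blue for the IFIT genes, DDX60, BST2 and ISG15, those of shE2F1 are red for IFIT2, RSAD2, USP18 and ISG15 and blue for GBP1, and the 4 drug libraries differ little from one another for most rows.

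The first comparison asked how the levels of the members differed with the EZH2 hairpin. Of 39 members tested, 11 were called lower and 1 higher in shEZH2. Among all 15373 genes tested, 10.7% were called lower and 7.52% higher. The median change was -0.51 over the members and -0.02 over all genes, and 28 of the 39 members had a fitted change below 0. The members called lower were IFIT1, IFIT2, IFIT3, DDX60, IFITM1, BST2, ISG20, ISG15, IFI6, IFI35 and IFI44, and the member called higher was PARP12. Across all genes, the change in shEZH2 went with GC content (Pearson's r = -0.239 over 15366 genes, which are not independent), and the median GC content was 43.8% for the members and 48.0% for all genes. With GC content and gene length corrected for, the median over the members was -0.64 and 12 members were called. IFITM1 (-0.98) and IFI6 (-0.94) then changed by less than 2-fold and were no longer among them, while IFIT5 (-1.12) and RSAD2 (-1.68) were.

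The second comparison asked the same of the E2F1 hairpin. Here 9 of 39 members were called higher and 1 lower, where 5.6% of all genes tested were called higher and 5.96% lower. The median change was 0.39 over the members and -0.00 over all genes. The members called higher were IFIT2, MX1, MX2, RSAD2, CMPK2, USP18, PARP12, TRIM22 and IFI27, and the member called lower was GBP1. CMPK2 passed the filter on low counts only through the shE2F1 libraries. Without it, 8 of 38 members were called higher and 1 lower, and the median change was 0.39. The median in shEZH2 without CMPK2 was -0.46. The number called was 5 without shE2F1 replicate 1 and between 7 and 12 without any other single library.

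Both comparisons use the same Control shRNA libraries, so the difference between the hairpins was also tested directly. With shEZH2 set against shE2F1, 19 of 39 members were called lower and 3 higher, where 12.9% of all genes were called lower and 10.4% higher. The median change was -1.01 over the members and -0.02 over all genes. The 3 members higher in shEZH2 than in shE2F1 were GBP1, XAF1 and EPSTI1. Without CMPK2, 18 of 38 members were called lower and 3 higher, and the median change was -0.91.

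**Figure D3:**
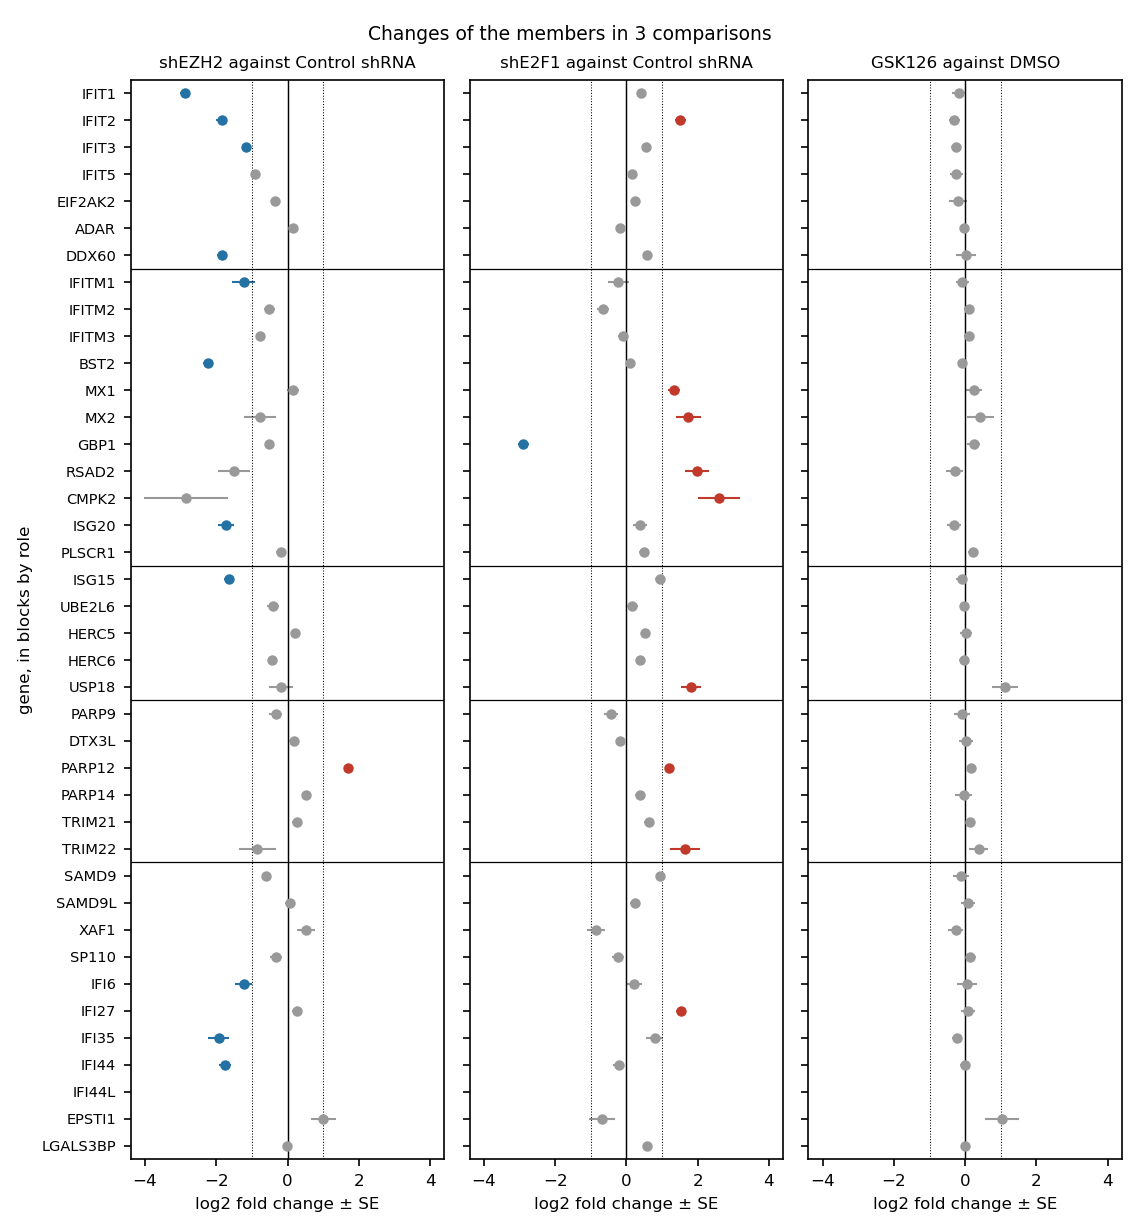
Points are log2 fold changes of each member with bars of 1 SE, from 2 libraries per group, for shEZH2 against Control shRNA (left), shE2F1 against Control shRNA (middle) and GSK126 against DMSO (right). Filled colours mark members called lower (blue, 11 at left and 1 in the middle) or higher (red, 1 at left and 9 in the middle), dotted lines mark a 2-fold change, and no member is coloured at right. IFI44L has no point, and CMPK2 none at right.

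Among the genes that act on RNA and translation, IFIT1, IFIT2, IFIT3 and DDX60 were called lower in shEZH2. IFIT1, which binds foreign RNA caps and blocks their translation, stood at 76.1 and 71.9 CPM in Control shRNA, 11.6 and 8.92 CPM in shEZH2 and 106 and 92.7 CPM in shE2F1. The groups did not overlap, and the level in shEZH2 was 7.34-fold lower than in Control shRNA (-2.88 ± 0.14, edgeR adjusted p = 5.85e-07). No other called member changed more in that comparison. In shE2F1 the change was 0.42 ± 0.12 (edgeR adjusted p = 0.0147), which did not pass.

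IFIT2, a partner of IFIT1 that binds RNA, moved in opposite directions with the hairpins. It stood at 88.1 and 67.0 CPM in Control shRNA, 25.3 and 18.4 CPM in shEZH2 and 225 and 222 CPM in shE2F1, with no overlap between any of the groups. The change was -1.85 ± 0.16 in shEZH2 (edgeR adjusted p = 9.05e-06) and 1.52 ± 0.15 in shE2F1 (edgeR adjusted p = 2.36e-05). It was the only member called in opposite directions in these comparisons, and between the hairpins its level differed by 10.3-fold (edgeR adjusted p = 2.11e-07).

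IFIT3, which stabilises IFIT1, stood at 153 and 121 CPM in Control shRNA, 60.3 and 63.3 CPM in shEZH2 and 215 and 189 CPM in shE2F1. It changed by -1.16 ± 0.12 in shEZH2 (edgeR adjusted p = 2.67e-05) and by 0.55 ± 0.12 in shE2F1 (edgeR adjusted p = 0.00357), which was under 2-fold. Without Control shRNA replicate 1, the change in shEZH2 was -0.99, just under 2-fold. IFIT5, which binds single-stranded RNA, stood at 33.1 and 34.4 CPM in Control shRNA, 19.6 and 16.7 CPM in shEZH2 and 39.0 and 37.0 CPM in shE2F1. Its change of -0.91 ± 0.12 in shEZH2 did not reach 2-fold, and shEZH2 and shE2F1 differed by -1.07 ± 0.12 (edgeR adjusted p = 2.41e-05). IFIT5 was called lower in shEZH2 with GC and length correction (-1.12), with effective length as an offset (-1.15) and without shEZH2 replicate 1 (-1.03), and its call between the hairpins was lost without shEZH2 replicate 2 (-0.95).

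The 4 IFIT genes are neighbours on chromosome 10, in the order IFIT2, IFIT3, IFIT1 and IFIT5, with 18.0, 15.1 and 8.08 kb between them. DDX60, a helicase that promotes RNA sensing, is on chromosome 4. It stood at 33.4 and 28.1 CPM in Control shRNA, 8.88 and 8.58 CPM in shEZH2 and 43.8 and 48.8 CPM in shE2F1. It changed by -1.83 ± 0.14 in shEZH2 (edgeR adjusted p = 4.17e-06), and its change of 0.58 ± 0.12 in shE2F1 was under 2-fold. The translation-blocking kinase EIF2AK2 (-0.34 ± 0.09 in shEZH2) and the RNA-editing enzyme ADAR (0.15 ± 0.09) were called in none of the comparisons, at 75.4 to 127 CPM and 215 to 281 CPM over the 10 libraries. With GC and length correction, EIF2AK2 was called lower in shEZH2 than in shE2F1 (-1.05, without and with the replicate block).

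Among the membrane, GTPase and nucleotide effectors, BST2, ISG20 and IFITM1 were called lower in shEZH2. BST2, also called tetherin, holds budding virus particles at the cell surface. It stood at 68.1 and 57.4 CPM in Control shRNA, 13.8 and 13.1 CPM in shEZH2 and 67.4 and 67.8 CPM in shE2F1. The shEZH2 libraries lay apart from the other 8, and the change was -2.24 ± 0.12 (edgeR adjusted p = 8e-07), whereas the change in shE2F1 was 0.10 ± 0.11. ISG20, an RNA exonuclease, stood at 9.37 and 7.20 CPM in Control shRNA, 2.26 and 2.76 CPM in shEZH2 and 10.2 and 11.7 CPM in shE2F1. It changed by -1.72 ± 0.23 in shEZH2 (edgeR adjusted p = 0.000113).

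The IFITM genes, which restrict virus entry, lie within a short stretch of chromosome 11. IFITM1 stood at 8.05 and 4.38 CPM in Control shRNA, 2.26 and 3.05 CPM in shEZH2 and 4.65 and 6.14 CPM in shE2F1. Its change of -1.23 ± 0.33 in shEZH2 was called (edgeR adjusted p = 0.00836), but 29.8% of its 50-base stretches also occur in other genes, chiefly IFITM3, and the call was lost without Control shRNA replicate 1 (-0.72), without shEZH2 replicate 1 (-1.05) or without shEZH2 replicate 2 (-1.46). It was also lost in a fit of the 4 Control shRNA and shEZH2 libraries alone (-1.24), with effective length as an offset (-1.33), with GC and length correction (-0.98) and with the replicate block (-1.22). IFITM3 stood at 184 and 160 CPM in Control shRNA and at 90.6 and 113 CPM in shEZH2, a change of -0.76 ± 0.12 that was under 2-fold. IFITM2 was called in none of the comparisons.

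Both MX genes were called higher in shE2F1 and not called in shEZH2. MX1, a dynamin-like GTPase against RNA viruses, stood at 8.68 and 6.96 CPM in Control shRNA, 9.34 and 8.23 CPM in shEZH2 and 19.5 and 20.4 CPM in shE2F1. It rose by 1.34 ± 0.16 in shE2F1 (edgeR adjusted p = 8.92e-05), and the hairpins differed by -1.19 ± 0.16 (edgeR adjusted p = 0.000103). MX2, its neighbour on chromosome 21, stood at 1.38 and 0.840 CPM in Control shRNA, 0.753 and 0.576 CPM in shEZH2 and 3.40 and 4.15 CPM in shE2F1. It rose by 1.74 ± 0.35 in shE2F1 (edgeR adjusted p = 0.00243), a call lost with effective length as an offset (1.53), without Control shRNA replicate 2 (1.45) or without either shE2F1 library (1.88 and 1.59). Its call between the hairpins was lost with effective length as an offset (-1.92).

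RSAD2 (viperin), an enzyme that makes a chain-terminating nucleotide, and CMPK2, a mitochondrial nucleotide kinase, overlap head to head on chromosome 2. RSAD2 stood at 2.44 and 3.36 CPM in Control shRNA, 1.58 and 0.576 CPM in shEZH2 and 14.1 and 8.78 CPM in shE2F1. It rose by 1.98 ± 0.34 in shE2F1 (edgeR adjusted p = 0.000853), a call lost without shE2F1 replicate 1 (1.59). The change of -1.49 ± 0.45 in shEZH2 (edgeR adjusted p = 0.0154) did not pass. It was called lower with DESeq2 (-1.46), with no filter on low counts (-1.501), with GC and length correction (-1.68), with the replicate block (-1.52) and without shEZH2 replicate 1 (-2.33). CMPK2 stood at 0.424 and 0.120 CPM in Control shRNA, 0.0753 and 0 CPM in shEZH2 and 1.92 and 1.56 CPM in shE2F1. It was near the floor in most libraries, with 10 counts in both Control shRNA libraries together, 1 in shEZH2 and 69 in shE2F1. Because CMPK2 passed the filter on low counts only through the shE2F1 libraries, its higher level there is a description. It was called higher in shE2F1 (edgeR adjusted p = 0.00426), a call lost with DESeq2, with effective length as an offset and without Control shRNA replicate 2 or either shE2F1 library. From summed counts, its level was 58.2 times as high in shE2F1 as in shEZH2, a ratio that rests on 1 count in shEZH2. The exact 95% interval of 10.1 to 2332 covers counting error only, and not the choice made by the filter.

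GBP1, a GTPase induced by interferon gamma that attacks intracellular pathogens, went the other way. It stood at 28.8 and 31.6 CPM in Control shRNA, 20.9 and 21.8 CPM in shEZH2 and 3.64 and 4.58 CPM in shE2F1. The shE2F1 libraries lay far below all others, and the change was -2.89 ± 0.16 (edgeR adjusted p = 9.6e-07), a 7.40-fold lower level. In shEZH2 its change of -0.51 ± 0.14 (edgeR adjusted p = 0.00819) was under 2-fold, and shEZH2 exceeded shE2F1 by 2.38 ± 0.16 (edgeR adjusted p = 7.91e-07). PLSCR1, a phospholipid scramblase, was called in none of the comparisons, at 12.8 to 21.7 CPM.

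**Figure D4:**
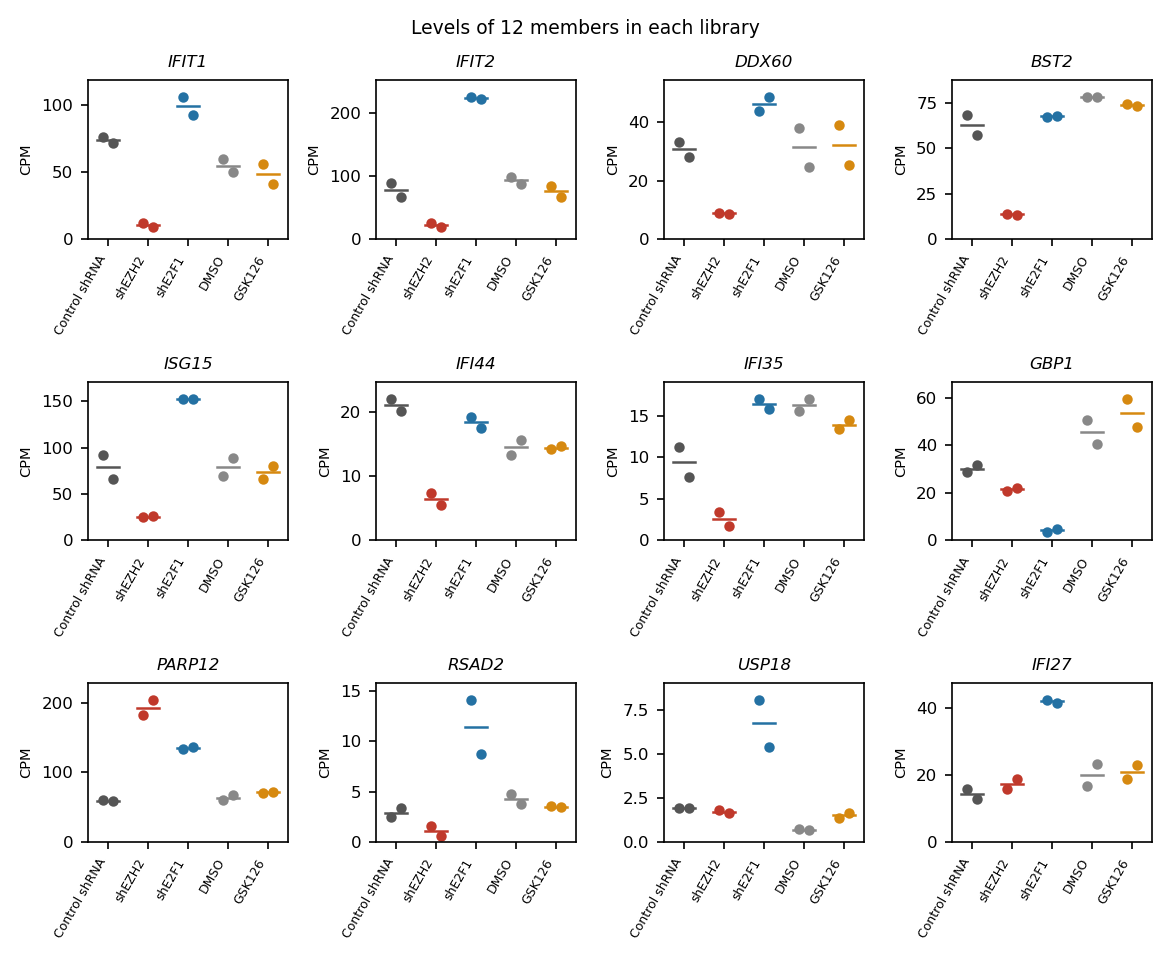
Points are the CPM of 12 members in each of the 10 libraries and lines the mean of the 2 libraries of a group, on axes that start at 0. The shEZH2 points lie below all others for IFIT1, IFIT2, DDX60, BST2, ISG15, IFI44 and IFI35 and above all others for PARP12, and the shE2F1 points lie below all others for GBP1 and above all others for IFIT2, RSAD2, USP18 and IFI27.

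In the ISG15 system, ISG15 was called lower in shEZH2 and USP18 higher in shE2F1, and the other 3 members were called in none of the comparisons. ISG15, the ubiquitin-like modifier, stood at 92.2 and 66.3 CPM in Control shRNA, 24.9 and 26.2 CPM in shEZH2 and 152 and 153 CPM in shE2F1, with no overlap. It changed by -1.65 ± 0.15 in shEZH2 (edgeR adjusted p = 9.01e-06). Its change of 0.94 ± 0.13 in shE2F1 (edgeR adjusted p = 0.000272) was just under 2-fold, and it was called at 1.19 without Control shRNA replicate 1. Between the hairpins it differed by -2.58 ± 0.15 (edgeR adjusted p = 3.49e-07).

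The conjugating enzyme UBE2L6 (-0.41 ± 0.17 in shEZH2) and the ligases HERC5 (0.22 ± 0.10) and HERC6 (-0.42 ± 0.11) were those not called. USP18, the protease that removes ISG15 and that also restrains the interferon receptor, stood at 1.91 and 1.92 CPM in Control shRNA, 1.81 and 1.61 CPM in shEZH2 and 8.05 and 5.39 CPM in shE2F1. It rose by 1.80 ± 0.28 in shE2F1 (edgeR adjusted p = 0.000484), a call lost without shE2F1 replicate 1 (1.48). Its reads are uncertain, since 23.1% of its 50-base stretches also occur in other genes.

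Among the ADP-ribosylation and TRIM genes, PARP12 was the exception to the direction of the other members called in shEZH2. PARP12, a mono-ADP-ribosyltransferase that restricts viral translation, stood at 59.9 and 58.8 CPM in Control shRNA, 183 and 205 CPM in shEZH2 and 134 and 138 CPM in shE2F1. It rose by 1.69 ± 0.09 in shEZH2 (edgeR adjusted p = 8.79e-07) and by 1.18 ± 0.09 in shE2F1 (edgeR adjusted p = 5.51e-06), from the same control libraries. It was the only member called higher with both hairpins, and shEZH2 exceeded shE2F1 by 0.51 ± 0.09, less than 2-fold.

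TRIM22, a ubiquitin ligase of the TRIM family, stood at 2.38 and 0.720 CPM in Control shRNA, 0.828 and 0.921 CPM in shEZH2 and 4.60 and 5.44 CPM in shE2F1. It rose by 1.66 ± 0.42 in shE2F1 (edgeR adjusted p = 0.00867), a call lost with effective length as an offset (1.01), without Control shRNA replicate 2 (1.07) or without either shE2F1 library (1.78 and 1.54). The change in shEZH2 turned from -0.85 to 0.27 without Control shRNA replicate 1. PARP9 and DTX3L, which form a complex, PARP14 and the antibody receptor TRIM21 were called in none of the comparisons, with changes against Control shRNA from -0.43 (PARP9 in shE2F1) to 0.65 (TRIM21 in shE2F1).

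Among the other members, IFI35, IFI44 and IFI6 were called lower in shEZH2. IFI35 stood at 11.2 and 7.62 CPM in Control shRNA, 3.46 and 1.67 CPM in shEZH2 and 17.0 and 15.9 CPM in shE2F1, and it changed by -1.93 ± 0.31 in shEZH2 (edgeR adjusted p = 0.000343). IFI44 stood at 22.2 and 20.2 CPM in Control shRNA, 7.38 and 5.47 CPM in shEZH2 and 19.3 and 17.6 CPM in shE2F1, and it changed by -1.75 ± 0.17 in shEZH2 (edgeR adjusted p = 1.69e-05). IFI35 thus stood above the controls in both shE2F1 libraries and IFI44 below them, and neither was called there (0.79 ± 0.25 and -0.21 ± 0.15). IFI6, an anti-apoptotic protein, stood at 9.64 and 8.28 CPM in Control shRNA, 3.01 and 4.60 CPM in shEZH2 and 9.29 and 11.6 CPM in shE2F1. It changed by -1.23 ± 0.24 in shEZH2 (edgeR adjusted p = 0.00126), or by -0.98 without shEZH2 replicate 1, which was no longer called.

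IFI27, a mitochondrial protein, stood at 15.7 and 12.9 CPM in Control shRNA, 15.9 and 18.8 CPM in shEZH2 and 42.4 and 41.5 CPM in shE2F1. It rose by 1.54 ± 0.14 in shE2F1 (edgeR adjusted p = 1.16e-05), while its change in shEZH2 was 0.27 ± 0.14. SAMD9, a growth-restraining antiviral protein, stood at 73.5 and 60.5 CPM in Control shRNA, 46.2 and 43.5 CPM in shEZH2 and 127 and 134 CPM in shE2F1, and it was called between the hairpins (-1.55 ± 0.11, edgeR adjusted p = 1.42e-06). Against Control shRNA its changes of -0.59 ± 0.11 in shEZH2 and 0.95 ± 0.11 in shE2F1 were under 2-fold, and the latter was called at 1.10 without Control shRNA replicate 1. Its neighbour SAMD9L, at 30.4 to 44.2 CPM over the 10 libraries, was called in none of the comparisons.

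XAF1, a pro-apoptotic protein, stood at 9.48 and 6.66 CPM in Control shRNA, 9.41 and 13.8 CPM in shEZH2 and 5.12 and 3.83 CPM in shE2F1. EPSTI1 stood at 2.07 and 1.26 CPM in Control shRNA, 3.39 and 3.40 CPM in shEZH2 and 0.910 and 1.19 CPM in shE2F1. Both were higher in shEZH2 than in shE2F1, XAF1 by 1.37 ± 0.26 (edgeR adjusted p = 0.000877) and EPSTI1 by 1.69 ± 0.36 (edgeR adjusted p = 0.00206). The EPSTI1 call was lost without shEZH2 replicate 2 (1.70) or either shE2F1 library (1.505 and 1.89), and that of XAF1 without shE2F1 replicate 2 (1.18). Both calls were also lost with effective length as an offset (2.00 for EPSTI1 and 1.03 for XAF1). LGALS3BP, at 340 to 550 CPM, and SP110 were called in none of the comparisons.

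The members with and without the ISRE core were then set side by side, as a description. In shEZH2, the median change was -0.55 over the 26 tested members that have it, of which 10 were called, and -0.36 over the 8 that do not, of which 1 was called, where 10.7% of all genes were called lower and 7.52% higher. In shE2F1 the medians were 0.40 and 0.20, with 5 (4 higher and 1 lower) and 1 called, where 5.6% of all genes were called higher and 5.96% lower. The 1 called there without the core was CMPK2, which passed the filter on low counts only through the shE2F1 libraries. IFIT2, MX2, USP18 and TRIM22, all called higher in shE2F1, have no promoter window and are in neither class. IFIT2 was also called lower in shEZH2. With 8 members in the smaller class, the classes were not tested against each other. In the members that have the core, changes ran from -2.88 (IFIT1) to 1.69 (PARP12) in shEZH2 and from -2.89 (GBP1) to 1.98 (RSAD2) in shE2F1.

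The third question was whether inhibition of the methyltransferase activity of EZH2 moved the same genes. In GSK126 against DMSO, 0 of 38 members were called, as were 0 (0%) of all 14632 genes tested, by edgeR and also by DESeq2 for the members. At an unadjusted p under 0.05, 1 member (2.63%) differed, against 3.94% of all genes. The median change was -0.00 over the members and -0.01 over all genes, and the changes ran from -0.31 (ISG20) to 1.11 (USP18). IFIT1 stood at 59.5 and 49.8 CPM in DMSO and, with GSK126, at 55.9 and 41.2 CPM, a change of -0.17 ± 0.18. BST2 stood at 78.3 and 78.1 CPM in DMSO and, with GSK126, at 74.7 and 73.4 CPM, a change of -0.08 ± 0.11. ISG15 stood at 69.0 and 88.5 CPM in DMSO and, with GSK126, at 66.1 and 80.7 CPM, a change of -0.10 ± 0.16, and its groups overlapped. Within each replicate number it was lower with GSK126.

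USP18 was the member that passed the unadjusted threshold. It stood at 0.701 and 0.678 CPM in DMSO and, with GSK126, at 1.35 and 1.65 CPM, a change of 1.11 ± 0.37 with an edgeR adjusted p of 1. EPSTI1, which was also low, stood at 1.35 and 0.565 CPM in DMSO and, with GSK126, at 2.28 and 1.71 CPM, a change of 1.03 ± 0.47. GBP1 stood at 50.5 and 40.3 CPM in DMSO and, with GSK126, at 59.7 and 47.7 CPM, with overlapping groups. Within each replicate number it was higher with GSK126. A p that misses the threshold does not show that levels were alike. The SE gives the size resolved by a fit that did not pair libraries by replicate number. Of 38 members, 23 were lower and 10 higher in replicate 2 than in replicate 1 of both DMSO and GSK126. The SE therefore includes a replicate shift that the groups share.

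The effects of the hairpin and of the inhibitor were compared by the difference of their log2 changes in a fit of all 10 libraries. Of 39 members, 8 were called with a lower and 1 with a higher effect of shEZH2 than of GSK126, where 8.67% of all genes were called lower and 5.13% higher. The median difference was -0.61 over the members and -0.03 over all genes. The difference was -2.69 ± 0.24 for IFIT1 (edgeR adjusted p = 2.24e-05), -2.15 ± 0.16 for BST2 (edgeR adjusted p = 8.23e-06), -1.53 ± 0.24 for ISG15 (edgeR adjusted p = 0.000503) and 1.54 ± 0.15 for PARP12 (edgeR adjusted p = 3.77e-05). IFIT2, DDX60, ISG20, IFI35 and IFI44 were the others called, with differences from -1.84 (DDX60) to -1.40 (ISG20). The call of ISG20 was lost without any 1 of 5 libraries (Control shRNA replicate 1, either shEZH2 library, DMSO replicate 1 or GSK126 replicate 2), with differences from -1.56 to -1.20, and that of IFI35 without Control shRNA replicate 1 (-1.39) or shEZH2 replicate 2 (-1.22). The knockdown protocol, with its transduction and selection, and the drug protocol have separate controls.

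**Figure D5:**
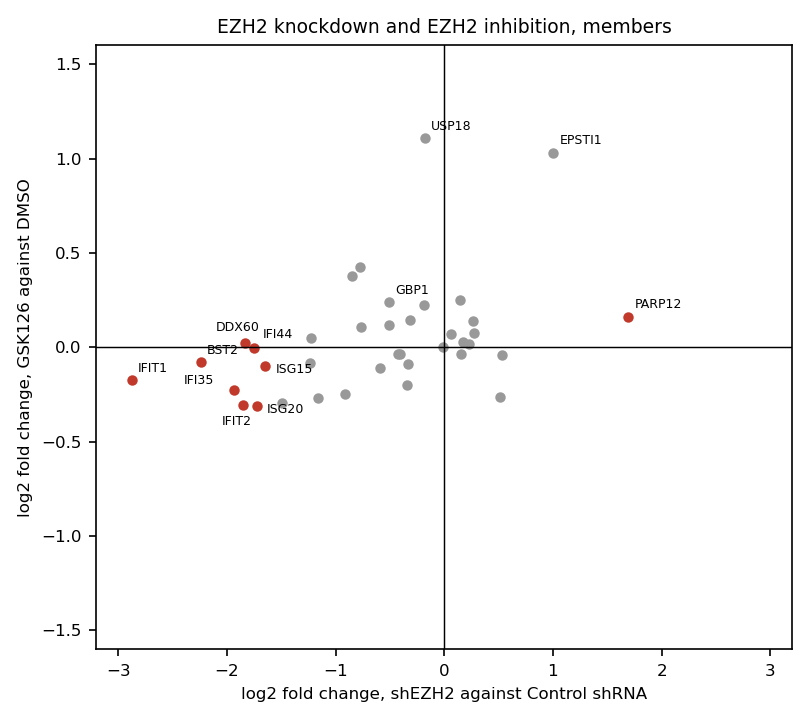
Each point is 1 of the 38 members tested in both experiments, with the log2 fold change in shEZH2 against Control shRNA on the x axis and in GSK126 against DMSO on the y axis, which has a narrower range. Red points are the 9 members called for the difference of the effects, and all 9 lie between -0.31 and 0.16 on the y axis.

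The control groups of the experiments were set side by side to see whether the members' levels differed between the experiments before any knockdown or inhibition. In Control shRNA against DMSO, 0 of 39 members were called by edgeR and by DESeq2, where 0.9% of all genes were called. At an unadjusted p under 0.05, 14 members (35.9%) differed, against 25.1% of all genes. The median change was -0.10 over the members and 0.00 over all genes. The changes ran from -0.98 ± 0.25 for XAF1 to 1.46 ± 0.35 for USP18, which was called when no filter on low counts was applied. Transduction, selection and experiment cannot be told apart in this comparison.

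The wider interferon pathway was followed in a list of 69 further genes, 57 of which were tested in the knockdown fit. In shEZH2, 0 were called higher and 11 lower, against 7.52% and 10.7% of all genes, and the median was -0.56. The largest changes were those of OASL (-3.81 ± 0.24), a relative of the antiviral oligoadenylate synthetases, HLA-F (-2.69 ± 0.41) and the phosphatase PTPN6 (-2.12 ± 0.38). In shE2F1, 6 were called higher and 3 lower, against 5.6% and 5.96% of all genes, and the median was 0.12. OAS1 rose by 1.99 ± 0.28, and TLR3 and TRIM14 both fell by 1.76 (SE 0.31 and 0.12). The chemokine CXCL11 stood at 0.159 and 0 CPM in Control shRNA and at 1.05 and 1.40 CPM in shE2F1. Only its shE2F1 values, not those in Control shRNA, reached the level that the filter on low counts required. Pathway genes that passed this filter through 1 group alone were not looked for, so all counts of this list may include them. Between the hairpins, 16 were called lower and 2 higher in shEZH2, against 12.9% and 10.4% of all genes. In GSK126 against DMSO, 0 of 55 were called.

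The 9 interferon genes on the list, which encode the ligands, had at most 6 counts in any library, and 7 of them were at 0 in all 10. None was tested. Of 6 receptor genes, 0 were called with either hairpin. Of 11 kinases and transcription factors, 2 were called lower in shEZH2 (IRF3, -1.16 ± 0.13, and IRF7, -1.08 ± 0.24) and 1 higher in shE2F1 (STAT3, 1.07 ± 0.09). These 3 genes were named after their values were seen. Among all genes tested, 7.52% were called higher and 10.7% lower in shEZH2, and 5.6% higher and 5.96% lower in shE2F1. Among 12 tested sensors and adaptors, 4 were called lower in shEZH2, and of 15 antigen presentation genes 2 were, a share near the 10.7% of all genes. In shE2F1, 2 of the 12 sensors and adaptors were called higher and 2 lower, against 5.6% and 5.96% of all genes.

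For several members the reads may be shared with other genes. Over 5% of the 50-base stretches of 8 members also occur in another annotated gene, with 29.8% for IFITM1, 23.1% for USP18, 21.6% for IFITM2, 16.4% for IFI6, 15.4% for IFITM3, 8.92% for IFIT2, 7.76% for GBP1 and 7.67% for TRIM22. The IFITM genes share stretches with one another. Genes that overlap a coding gene on the other strand were IFIT1, IFIT2 and IFIT3 (LIPA), EIF2AK2 (GPATCH11), MX1 (TMPRSS2), TRIM22 (TRIM5), SP110 (SP140), and the pairs RSAD2 with CMPK2 and PARP9 with DTX3L. Whether counting took the strand into account is not given in the sources used here, so that reads of these pairs may have been counted together.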

How the data were processed

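A kit that keeps strand was used on poly(A) RNA. The authors aligned the reads by STAR to hg38 (Ensembl release 108) and estimated abundance with RSEM. The submitters' processing notes give STAR 2.7.2b and RSEM 1.3.1. The deposited files hold RSEM expected counts (estimated counts, in which reads that map to several genes are divided), TPM per gene and effective gene length, a score in bases. Of 62703 genes, 62625 were found by identifier in GENCODE release 44 (GRCh38), which gave names and coordinates.

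Expected counts were rounded and tested in R 4.3.3 with edgeR 4.0.16 (filterByExpr, TMM, quasi-likelihood F-test, Benjamini-Hochberg over every gene tested). One fit held the 6 knockdown libraries, another the 4 drug libraries, and a last one all 10 for the difference of effects and for Control shRNA against DMSO, with no covariate. The study used DESeq2, which was run as an alternative (1.42.0). Other alternatives were size factors, low-count filters, other sets of libraries, the replicate block, effective length, GC content and length, thresholds and leaving out each library. Members and lists were chosen with earlier results of these data known. Values per library are given for each member called in the knockdown or drug comparisons. For pathway genes, counts and up to 3 of the called genes with the largest change were given, with exceptions stated.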

Additional observations from a re-analysis of the deposited data

Results flagged for a closer look

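The effect of shEZH2 on the members differed from that of GSK126 when the difference itself was tested. Of 39 members, 9 were called for it by edgeR at an adjusted p under 0.01 and more than 2-fold (8 lower and 1 higher), against 8.67% of all genes lower and 5.13% higher. IFIT1 showed the largest difference among them, and PARP12 the only positive one. The hairpin and the inhibitor were used in separate experiments with separate controls, and the part of transduction and selection in the difference cannot be told apart from that of the agents.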

How the results depend on the processing

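The counts of members called kept within 1.5 times the reported count in every alternative other than the thresholds and those named here. With an adjusted p under 0.05 and no requirement on fold, 22 members were called in shEZH2, 24 in shE2F1, 34 between the hairpins, 15 for shEZH2 against GSK126 effects and 4 for Control shRNA against DMSO. With an adjusted p under 0.01 at any fold, 19 were called in shEZH2 and 18 in shE2F1. Leaving out 1 library at a time gave 5 to 12 members in shE2F1. With no filter, 1 member (USP18) was called in Control shRNA against DMSO.

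The median change of the members was more than the spread between replicates away from the reported value in a minority of settings. With GC and length correction it was -0.64 in shEZH2 (-0.63 with the replicate block), -1.05 between the hairpins (-1.05 with the block) and -0.74 for the difference of effects. With no filter it was -0.94 between the hairpins, and with a mean of at least 50 counts -0.85 there and -0.45 for the difference of effects. Leaving out 1 library at a time gave medians from -0.53 to -0.36 in shEZH2, -1.03 to -0.80 between the hairpins, -0.74 to -0.46 for the difference of effects and -0.25 to -0.010 for Control shRNA against DMSO.

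Direction reversed only where the member was not called in that comparison. In shEZH2, LGALS3BP turned to 0.0073 with DESeq2 and with its size factors, 0.0011 in a fit of all 10 libraries, 0.0044 with the effective length offset and 0.43 with GC and length correction, without and with the replicate block. GC and length correction turned MX1 to -0.13 (-0.12 with the block), ADAR to -0.048 (-0.047), DTX3L to -0.077 (-0.081) and SAMD9L to -0.31 (-0.30) in shEZH2, and PARP9 to -0.24 (-0.23) and PARP14 to -0.26 (-0.26) between the hairpins. Leaving out 1 library at a time gave -1.44 to 0.27 for TRIM22, -0.11 to 0.26 for SAMD9L and -0.090 to 0.072 for LGALS3BP in shEZH2, -0.58 to 0.29 for IFITM1 and -0.014 to 0.23 for BST2 in shE2F1, and -0.11 to 0.36 for IFITM2, -0.030 to 0.24 for PARP9, -0.0068 to 0.31 for PARP14 and -0.20 to 0.023 for SP110 between the hairpins. The cause was not tested.

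Replicates share a number, and no label says that it marks a shared culture or day. The differences between replicates correlated at r = 0.66 between DMSO and GSK126 and from -0.08 to 0.20 in the other pairs of groups, across 11919 genes that are not independent. With the replicate block the number of members called was 12 in shEZH2, 10 in shE2F1, 22 between the hairpins, 0 in GSK126 and 10 for the difference of effects. GC and length correction was not fitted with the block for comparisons over all 10 libraries. Under the block IFITM1 (-1.22) was no longer called in shEZH2 and RSAD2 (-1.52) was. With totals of 13198932 to 20055550 counts and 2 libraries per group, depth limits most the 5 members lowest in TPM in Control shRNA (IFI44L, CMPK2, MX2, EPSTI1 and TRIM22).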
